A study of Mus musculus with 32 samples.

Results

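The G1/S cyclins, their kinases and the factors that license replication origins form a set of 10 mouse genes, chosen by name from the 21829 genes of the deposited table: the cyclin genes Ccnd1, Ccnd2, Ccnd3, Ccne1 and Ccne2, the kinase genes Cdk4 and Cdk2, and the licensing genes Cdc6, Cdt1 and Gmnn. The table held all 10, and 9 passed the filter on low counts that the test required. Ccne2 did not pass it. The cells were EL08-1D2, a mouse mesenchymal stromal line derived from embryonic liver, either left without azacitidine or grown with it, with 16 libraries per group (n = 16 for every group value unless another n is given). Azacitidine is a cytidine analogue that, once built into DNA, traps DNA methyltransferases. The labels used here give neither its dose nor the length of the exposure, no other agent or genotype, and do not say whether each library is its own culture. The p-values therefore speak of library-to-library spread, which may be technical. All libraries come from 1 cell line.

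Cyclins of the D type bind CDK4 or CDK6 in G1 and start the phosphorylation of the retinoblastoma protein, which releases E2F transcription factors. Cyclins of the E type then bind CDK2 and carry the cell into S phase. Origins are licensed in G1, when CDC6 and CDT1 load the MCM helicase onto DNA, and geminin, the product of Gmnn, binds CDT1 outside G1 so that no origin is licensed again in the same cycle. E2F factors in turn drive many genes of this set, among them those of cyclin E.

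Values are counts of unique molecular identifiers (UMIs), short tags that mark single cDNA molecules. Libraries held between 818619 and 3210801 UMIs over mouse genes without azacitidine (median 1619400.5). With it they held between 1226861 and 5039721 (median 1966208.5). The treated libraries were thus deeper in the median, and UMI numbers given below without CPM are not scaled for depth. CPM denotes UMIs scaled to a common library total, with TMM-normalised library sizes. Of 9 stromal markers 8 passed the count filter, with Vim at 1985 CPM without and 2008 CPM with azacitidine, while Thy1 had 0 UMIs without and 26 with it. The stromal markers themselves moved: 3 of the 8 fell, the collagen genes Col1a1, Col1a2 and Col3a1, and 1 rose, Vcam1, and their summed level ran from 9311 to 12416 CPM without and from 6522 to 10752 CPM with azacitidine. Defining genes of other cells were near 0, with 1 and 4 UMIs of Ptprc, 2 and 6 of Pecam1 and 0 and 1 of Epcam in the groups without and with the drug. The 4 blood-list genes in the table summed to between 10.1 and 22.3 CPM without and between 21.6 and 35.8 CPM with azacitidine, and Cd68 rose. The part of these marker shifts in the results below was not tested. Libraries whose replicate numbers fall in the same run of 4 (1 to 4, 5 to 8, 9 to 12, 13 to 16) are more alike than others, for a reason the labels do not give, and 5 libraries stand apart from the rest. These are numbers 1 and 2 of the untreated group and 1, 2 and 4 of the treated group. Values by run are therefore given below.

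Of the 9 tested genes of the set, Ccnd1, Ccne1 and Cdt1 rose with azacitidine and none fell (edgeR, quasi-likelihood; adjusted p under 0.05 over 9344 tested genes by Benjamini-Hochberg). Over all tested genes 5.65% were called, 3.65% as higher and 2% as lower. The 3 genes that rose belong to 3 different steps, namely the D-type cyclins, the E-type cyclins and licensing. Their fold changes lay between 1.31 and 1.59. The libraries of the 2 groups overlapped in level for all 10 genes, and they did not overlap for 0.289% of tested genes. The median log2 fold change of the 9 genes was 0.20, and that of all tested genes was 0.00075. The set was chosen with earlier results of these data known, so its calls and median beside those of all genes are a description. In bulk RNA a change in the number of cells in a phase and a change in RNA per cell cannot be told apart. Leaving out the 5 libraries that stand apart kept the same 3 calls, with log2 fold changes of 0.50 for Ccnd1, 0.66 for Ccne1 and 0.41 for Cdt1. Summing the 4 libraries of each run and group, which leaves 4 sums per group, and fitting the run as a term also called these 3 and no other gene of the set (edgeR, adjusted p = 0.011, 0.040 and 0.015), against 2.56% of all tested genes called as higher.

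**Figure D1:**
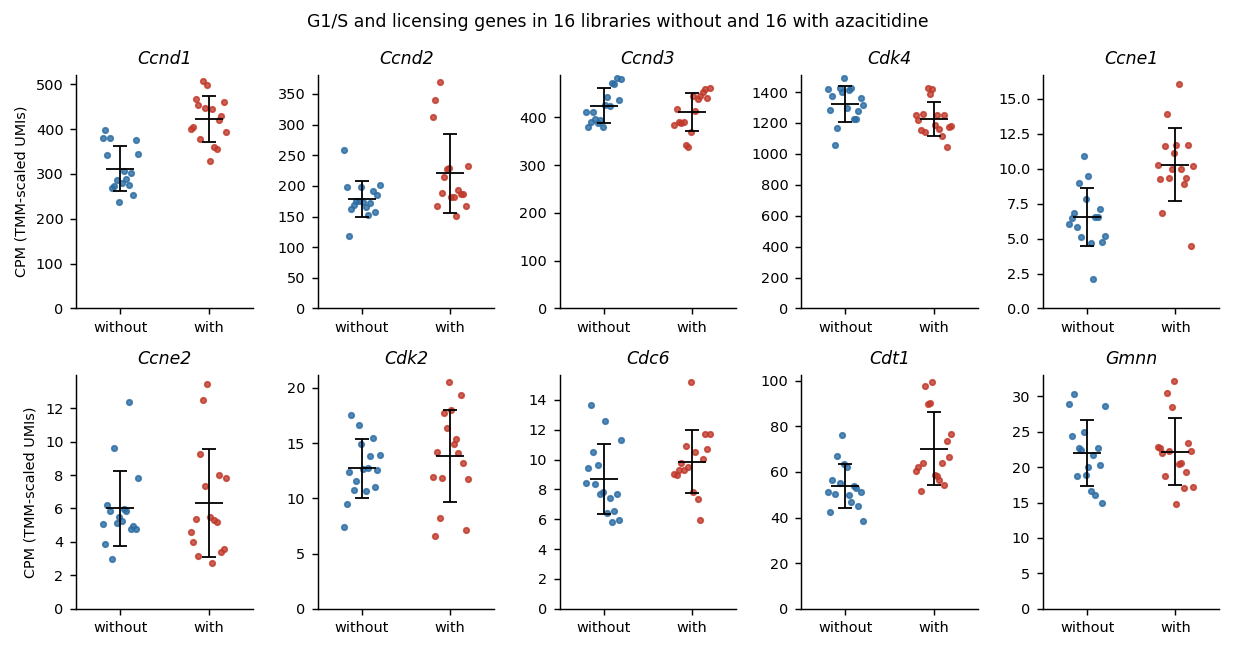
TMM-scaled UMI counts (CPM, linear axes from 0) of the 10 genes in each of the 16 libraries without (blue) and 16 with (red) azacitidine; means are wide bars, with whiskers of 1 SD. Ccnd1 shifts from a mean of 312 to 422 CPM, and the groups overlap in each of the 10 genes.

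With ERCC spike-in RNA as the scale, the median log2 fold change of all tested genes was 0.31, and 354 genes (3.79%) were called higher and 1 lower, against 341 and 187 with TMM. Ccnd1, Ccne1 and Cdt1 stayed called with it, at log2 fold changes of 0.78, 0.98 and 0.71 (edgeR, adjusted p = 0.0059, 0.0041 and 0.020), which lie above that shift of all genes. The values of Ccnd3 and Cdk4 turned from below to above 0, to 0.26 and 0.20, which lie below that shift.

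**Figure D2:**
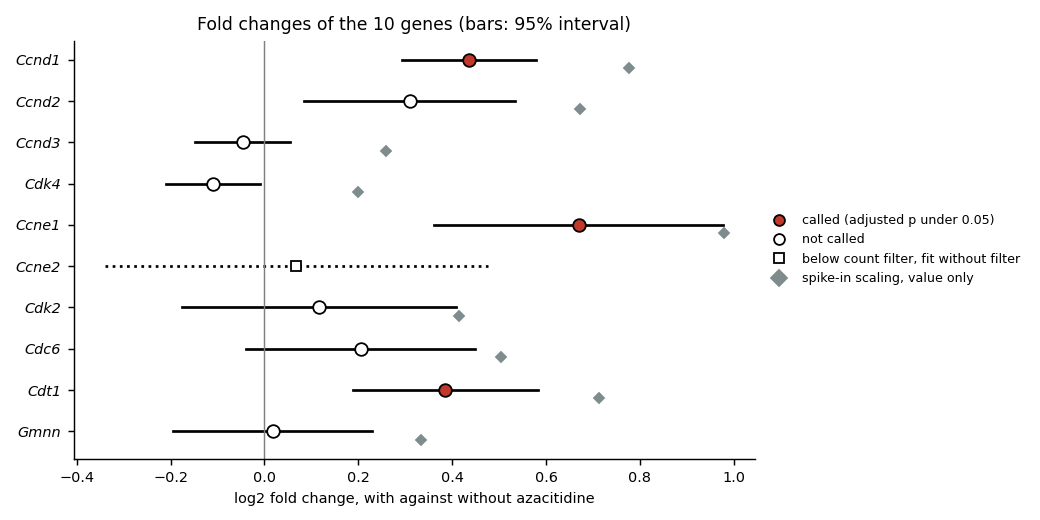
Log2 fold change with against without azacitidine for the 10 genes (edgeR); horizontal bars are 95% intervals, red circles are called genes, grey diamonds are the values with spike-in scaling, and the square with a dotted bar is Ccne2 fitted without the count filter. The intervals of Ccnd1, Ccne1 and Cdt1 start at 0.29, 0.36 and 0.19, and the spike-in values of the 9 tested genes all lie to the right of 0.

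Promoter windows from RefSeq (GRCm38.p6) were matched by symbol for 6 of the 10 genes. Ccnd1, Ccnd2, Ccne2 and Gmnn had no entry. The windows of the 2 genes that rose and had an entry, and that of Cdk2, which was not called, are shown from 250 bases before to 30 bases after the annotated start, since E2F factors are known to act at promoters of this gene class and azacitidine lowers DNA methylation, which in mammals lies mostly at CG. Capitals mark matches to 4 forms of the E2F motif, searched on both strands, and no matches overlapped one another. Of all 32851 promoter windows of 300 bases, 1.59% held TTCGCGC on either strand, 2.45% held TTGGCGC, 4.60% held TTCCCGC and 1.81% held TTGCCGC. At least 1 of these 4 was found in 9.57% of all windows, and in 21.02% of the 11378 windows with at least 15 CG, the number that every window of the set reaches.
Ccne1, chr7:38107461-38107740, minus strand: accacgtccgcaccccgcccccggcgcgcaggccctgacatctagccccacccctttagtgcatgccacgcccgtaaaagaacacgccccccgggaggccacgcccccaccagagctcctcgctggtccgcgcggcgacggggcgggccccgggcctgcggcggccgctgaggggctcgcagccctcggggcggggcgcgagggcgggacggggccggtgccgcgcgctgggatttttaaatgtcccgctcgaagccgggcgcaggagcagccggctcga
Cdt1, chr8:122567765-122568044, plus strand: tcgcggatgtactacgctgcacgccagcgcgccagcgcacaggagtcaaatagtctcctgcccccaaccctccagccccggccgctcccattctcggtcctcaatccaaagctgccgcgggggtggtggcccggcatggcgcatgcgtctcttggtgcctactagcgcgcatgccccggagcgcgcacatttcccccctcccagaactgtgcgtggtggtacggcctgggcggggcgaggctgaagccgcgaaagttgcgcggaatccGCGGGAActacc
Cdk2, chr10:128705022-128705301, minus strand: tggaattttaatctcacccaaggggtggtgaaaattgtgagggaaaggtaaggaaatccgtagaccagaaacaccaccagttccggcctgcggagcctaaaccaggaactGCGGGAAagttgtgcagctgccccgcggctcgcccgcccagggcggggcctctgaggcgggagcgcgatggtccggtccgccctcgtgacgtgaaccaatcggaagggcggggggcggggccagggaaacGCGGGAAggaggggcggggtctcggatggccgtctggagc
The Cdt1 window held 2 matches, of which the second, TTGGCGC, begins at base 34 after the start and is not printed. The Cdk2 window held 3, the last of which begins at base 41, and the Cdc6 window held 1. Ccne1, Ccnd3 and Cdk4 held 0 matches in their windows. Among the genes with a window, motif matches were thus seen both in a gene that rose and in genes that were not called. All windows of the set held more CG dinucleotides than the median window. The Ccne1 window of 300 bases held 41, more than 96.5% of all windows, the Cdt1 window 32, Cdk2 25, Cdk4 22, Cdc6 19, and the 2 windows of Ccnd3 15 and 28, against a median of 7.

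Among the D-type cyclins, which answer to growth signals, Ccnd1 rose, while Ccnd2 and Ccnd3 did not pass the test. Ccnd1, which encodes cyclin D1 (ENSMUSG00000070348, mm10, chromosome 7, 144929931 to 144939925, minus strand), ran from 237 through a median of 296 to 398 CPM without azacitidine. With azacitidine it ran from 329 through 425 to 508 CPM. The groups overlapped, but 11 of the 16 libraries with azacitidine lay above the highest library without it, and all 16 lay above the median of the libraries without it. The log2 fold change was 0.44 (SE 0.07; edgeR, adjusted p = 3.6e-05), a 1.35-fold increase with a 95% interval from 1.22 to 1.49. The gene overlaps LTO1 on the opposite strand by 1771 bases, and LTO1 held 8.02% as many UMIs and had a log2 fold change of 0.04 (SE 0.08). Whether the counting kept strand is not given in the sources used here.

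Within each run of 4 against 4 libraries the Ccnd1 levels of the 2 groups did not overlap, which held for 0.621% of tested genes in this direction. In numbers 1 to 4 they nearly touched, with the highest library without azacitidine at 397.9 CPM and the lowest with it at 399.2 CPM. In numbers 5 to 8 the mean moved from 267 ± 21.2 to 458 ± 59.9 CPM (SD, n = 4 per group), and its log2 fold change was 0.77. In numbers 1 to 4, with a mean of 374 ± 23.8 CPM in the untreated libraries, it was 0.20, and in numbers 9 to 12 and 13 to 16 it was 0.38 and 0.43. EdgeR within the runs called Ccnd1 in the last 3 of the 4 (adjusted p = 6.2e-07, 0.030 and 0.0089) and not in numbers 1 to 4 (0.31), against 3.25%, 1.04%, 2.26% and 1.96% of genes called as higher in those runs, in the same order. The test of a difference in effect between the runs gave an adjusted p of 0.066 for Ccnd1 (edgeR, interaction of run and azacitidine), and the lowest adjusted p among the other 8 tested genes was 0.39. Of all tested genes 3.02% passed that test.

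**Figure D3:**
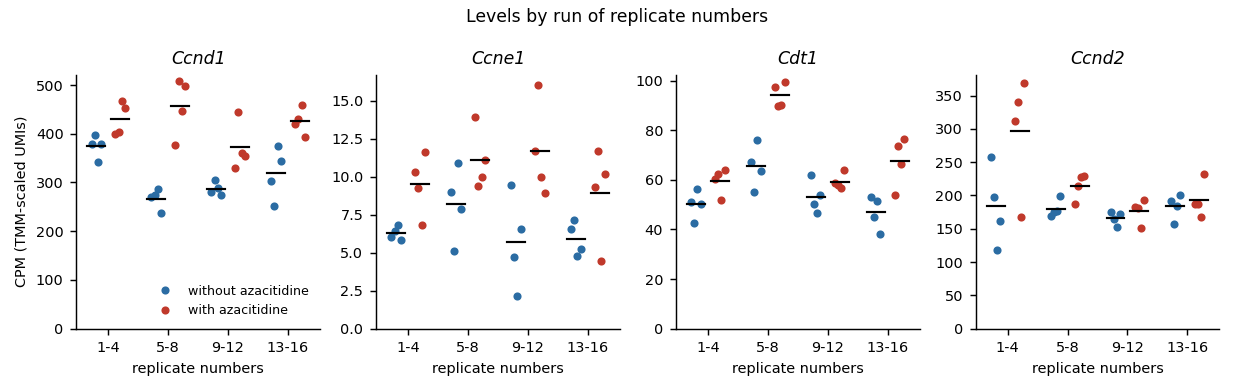
CPM of Ccnd1, Ccne1, Cdt1 and Ccnd2 (linear axes from 0) by run of 4 replicate numbers, without (blue) and with (red) azacitidine; points are libraries and black lines are means of 4. Ccnd1 is separated in every run, though barely in numbers 1 to 4 (397.9 against 399.2 CPM). The high Ccnd2 libraries with azacitidine lie in numbers 1 to 4.

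Ccnd2, which encodes cyclin D2 (chromosome 6, 127125162 to 127152193), ran from 119 through 175 to 258 CPM without and from 151 through 190 to 369 CPM with azacitidine. The 3 libraries above every library without the drug were numbers 1, 2 and 4 with azacitidine, at 312, 340 and 369 CPM, and these are 3 of the 5 libraries that stand apart. The log2 fold change was 0.31 (SE 0.11, 95% interval 0.08 to 0.53; edgeR, adjusted p = 0.10). Without those 5 libraries it was 0.17 (adjusted p = 0.14), and without numbers 1 to 4 it was 0.15 (0.18). In the 4 runs it was 0.68, 0.26, 0.09 and 0.07, none of them called alone. The mean was higher with azacitidine in each run, which held for 11% of tested genes. The Ccnd1 log2 fold change of 0.44 lies inside the Ccnd2 interval. Spike-in scaling, where the median of all tested genes is 0.31, called Ccnd2 at 0.67 (edgeR, adjusted p = 0.027).

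Ccnd3, which encodes cyclin D3 (chromosome 17, 47505051 to 47599691), stood at 424 ± 36.4 CPM without and 411 ± 40.5 CPM with azacitidine. Its log2 fold change of -0.05 had a 95% interval from -0.15 to 0.06 and was not called (edgeR, adjusted p = 0.71). It was -0.02, -0.12, -0.02 and -0.04 in the 4 runs. The spread of Ccnd3 followed the runs in both groups, from 360 ± 24.9 CPM in numbers 5 to 8 with azacitidine to 467 ± 21.5 CPM in numbers 13 to 16 without it (n = 4 each).

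The make-up of the D-type cyclin UMIs, a ratio within a library into which no scaling enters, also shows the 3 genes side by side. Ccnd1 supplied 34.0% ± 3.90 (SD) of the UMIs of the 3 genes without and 40.1% ± 4.24 with azacitidine, and 6 of the 16 libraries with the drug lay above the highest without it. Ccnd3 supplied 46.5% ± 3.90 and 39.2% ± 4.97, and Ccnd2 19.5% ± 2.60 and 20.7% ± 4.75. By run, the Ccnd1 share went from 39.3% to 38.6% in numbers 1 to 4, from 31.9% to 44.2% in 5 to 8, from 32.1% to 37.7% in 9 to 12 and from 32.7% to 39.7% in 13 to 16, so the share was higher with azacitidine in 3 of the 4 runs. These shares combine the genes described above and are given without a test.

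**Figure D4:**
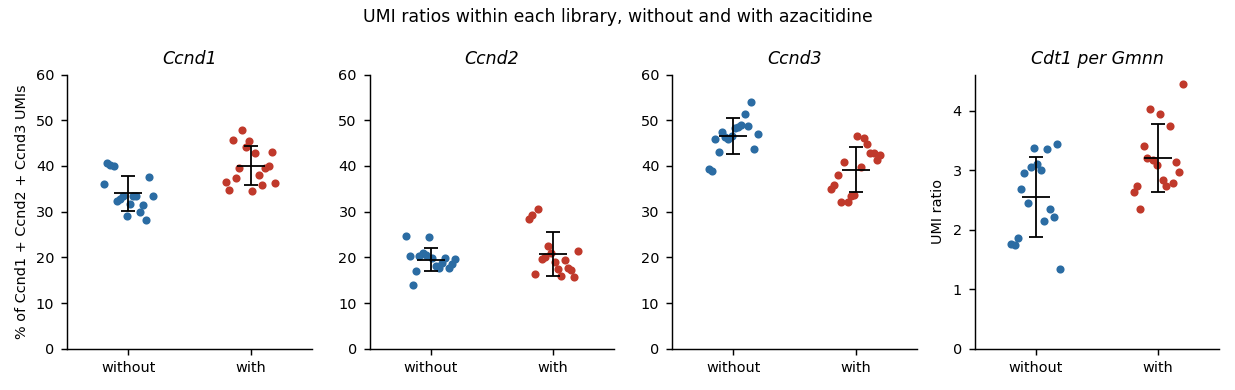
Share of Ccnd1, Ccnd2 and Ccnd3 in the UMIs of these 3 genes (percent, from 0) and the ratio of Cdt1 to Gmnn UMIs in each library, without (blue) and with (red) azacitidine; means are wide bars, with whiskers of 1 SD. The Ccnd1 share moves from 34.0% to 40.1% and the Cdt1 to Gmnn ratio from 2.55 to 3.20, with overlap in all 4 panels.

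Cdk4, the kinase partner of the D-type cyclins (chromosome 10, 127063534 to 127067920), ran from 1060 through 1341 to 1491 CPM without and from 1042 through 1201 to 1427 CPM with azacitidine. Most libraries with the drug were low within the common range, and 3 of 16 lay above the median of those without it. The log2 fold change was -0.11 (SE 0.05, 95% interval -0.21 to -0.01), which did not pass the test over all genes (edgeR, adjusted p = 0.23), and it was -0.08, -0.03, -0.18 and -0.16 in the 4 runs. Cdk4 overlaps Tspan31 on the opposite strand by 641 bases. Tspan31 held 40.8% as many UMIs and a log2 fold change of -0.11 (SE 0.05). Without known strand, reads of the pair that lie in the shared 641 bases cannot be told apart.

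The E-type cyclins and their kinase were at low counts. Ccne1, which encodes cyclin E1 (ENSMUSG00000002068, chromosome 7, 38097984 to 38107534, minus strand), had between 4 and 18 UMIs per library without and between 10 and 49 with azacitidine. Its level ran from 2.12 through a median of 6.50 to 10.9 CPM without the drug, and from 4.47 through 10.1 to 16.0 CPM with it. The groups overlapped, with 6 of 16 libraries above the highest without azacitidine, and 15 of 16 above its median. The log2 fold change of 0.67 (SE 0.15; edgeR, adjusted p = 0.0036) was the highest of the 9 genes, a 1.59-fold increase with a 95% interval from 1.28 to 1.97. It was 0.62, 0.40, 1.22 and 0.53 in the 4 runs, none of them called alone. When every library was thinned to 818619 UMIs, Ccne1 no longer passed the filter on counts, so the rise could not be tested at equal depth.

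Ccne2, which encodes cyclin E2 (chromosome 4, 11191351 to 11204779), had 155 UMIs in the 16 libraries without and 222 in the 16 with azacitidine, or 6.00 ± 2.27 and 6.34 ± 3.21 CPM. The runs went opposite ways: the mean with azacitidine was higher in numbers 5 to 8 (10.6 against 5.81 CPM) and lower in numbers 9 to 12 (4.69 against 7.37 CPM). A fit without the count filter gave a log2 fold change of 0.07 (SE 0.20, 95% interval -0.34 to 0.48; edgeR, adjusted p = 0.93). The gene overlaps Ints8 on the opposite strand, which held 120% as many UMIs.

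Cdk2, the partner of the E-type cyclins (chromosome 10, 128697939 to 128705031), stood at 12.7 ± 2.65 CPM without and 13.8 ± 4.14 CPM with azacitidine. Its log2 fold change of 0.12 was not called, and the 95% interval from -0.18 to 0.41 leaves room for changes of up to 1.33-fold (edgeR, adjusted p = 0.76). The libraries with azacitidine spread on both sides of those without it, 4 above the highest and 2 below the lowest. By run the log2 fold change of Cdk2 was -0.09, 0.30, 0.34 and -0.08, and it was 0.21 without numbers 1 to 4 (edgeR, adjusted p = 0.43).

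Among the licensing genes Cdt1 rose, while Cdc6 and Gmnn did not pass the test. Cdt1, which encodes the loader of the MCM helicase (ENSMUSG00000006585, chromosome 8, 122568015 to 122573554, plus strand), ran from 38.3 through 52.2 to 76.2 CPM without and from 51.8 through 63.9 to 99.5 CPM with azacitidine. Of the libraries with azacitidine 5 of 16 lay above every library without it, and 15 of 16 lay above the median of those. The 5 were numbers 5 to 8, at 90.0 to 99.5 CPM, and number 16, at 76.7 CPM. Without azacitidine numbers 5 to 8 also had the highest mean of the 4 runs, 65.5 CPM. The log2 fold change was 0.39 (SE 0.10; edgeR, adjusted p = 0.010), a 1.31-fold increase, with a 95% interval from 0.19 to 0.58 on the log2 scale. It was 0.26, 0.51, 0.18 and 0.52 in the 4 runs, and Cdt1 was called within numbers 5 to 8 and 13 to 16 (edgeR, adjusted p = 0.0016 and 0.020). At equal depth the call depended on the draw: over 20 draws that thinned each library to 818619 UMIs, Cdt1 was called in 11, Ccnd1 in 20 and Ccnd2 in 1, and the Cdt1 log2 fold change ran from 0.30 to 0.49. Gm20388, annotated on the same strand, overlaps Cdt1 by 5540 bases and has no row in the deposited table. Its reads therefore cannot be told apart from those of Cdt1 here.

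Cdc6, which encodes the factor that recruits CDT1 to the origin (chromosome 11, 98907801 to 98923940), ran from 5.83 through 8.12 to 13.7 CPM without and from 5.94 through 9.64 to 15.2 CPM with azacitidine. The log2 fold change was 0.20 (SE 0.12, 95% interval -0.04 to 0.45; edgeR, adjusted p = 0.41). Its libraries held between 8 and 43 UMIs of the gene, and the log2 fold change of Cdt1 lies inside this interval. It was -0.14, 0.36, 0.10 and 0.53 for Cdc6 in the 4 runs, and 0.36 without numbers 1 to 4 (edgeR, adjusted p = 0.15).

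Gmnn, the gene of the CDT1 inhibitor geminin (chromosome 13, 24751845 to 24761923), stood at 22.0 ± 4.62 CPM without and 22.2 ± 4.75 CPM with azacitidine. Its log2 fold change was 0.02 (SE 0.10, 95% interval -0.20 to 0.23; edgeR, adjusted p = 0.98), and the runs ranged from -0.29 in numbers 1 to 4 to 0.34 in numbers 5 to 8. Without numbers 1 to 4 it was 0.15 (adjusted p = 0.53). The number of Cdt1 UMIs per Gmnn UMI, which needs no scaling, was 2.55 ± 0.67 (SD) without and 3.20 ± 0.58 with azacitidine. It was higher with the drug in each run, at 2.78 against 2.01, 3.37 against 2.96, 3.32 against 2.90 and 3.34 against 2.33. The ratio overlapped between the groups, with 4 of 16 libraries above the highest without azacitidine, and is given without a test.

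The other genes of the pathway, in 9 lists, mostly did not pass the test. Of 113 listed genes 92 were tested, and 5 rose and 1 fell, which is 6.52% against the 5.65% of all tested genes. Their median log2 fold change was 0.01. The summed level of the 90 listed genes outside G2 and mitosis was 5185 ± 113 CPM without and 5200 ± 179 CPM with azacitidine (two-sided permutation test, p = 0.78, adjusted over 2 sums p = 0.78). The sum includes CDK inhibitors, at 589 to 750 CPM without and 680 to 796 CPM with azacitidine. It also includes ubiquitin ligases, at 1500 to 1768 and 1488 to 1668 CPM, so it is not a level of replication genes alone. By run this sum with azacitidine minus that without it was -6.55, 287, -165 and -55.9 CPM, so the runs went opposite ways, and the permutation test does not take the runs into account. The summed level of 23 genes of G2 and mitosis was 585 ± 108 and 598 ± 126 CPM (permutation test, p = 0.76, adjusted p = 0.78). The mitotic sum differed more between runs than between groups: without azacitidine it was 686, 681, 486 and 486 CPM in the 4 runs, and with it 678, 738, 424 and 551 CPM. By run, the sum with azacitidine minus that without it was -8.53, 57.1, -62.4 and 65.1 CPM, and the Cdt1 fold changes were highest in numbers 5 to 8 and 13 to 16, where this difference was above 0; its part in the Cdt1 result was not tested.

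**Figure D5:**
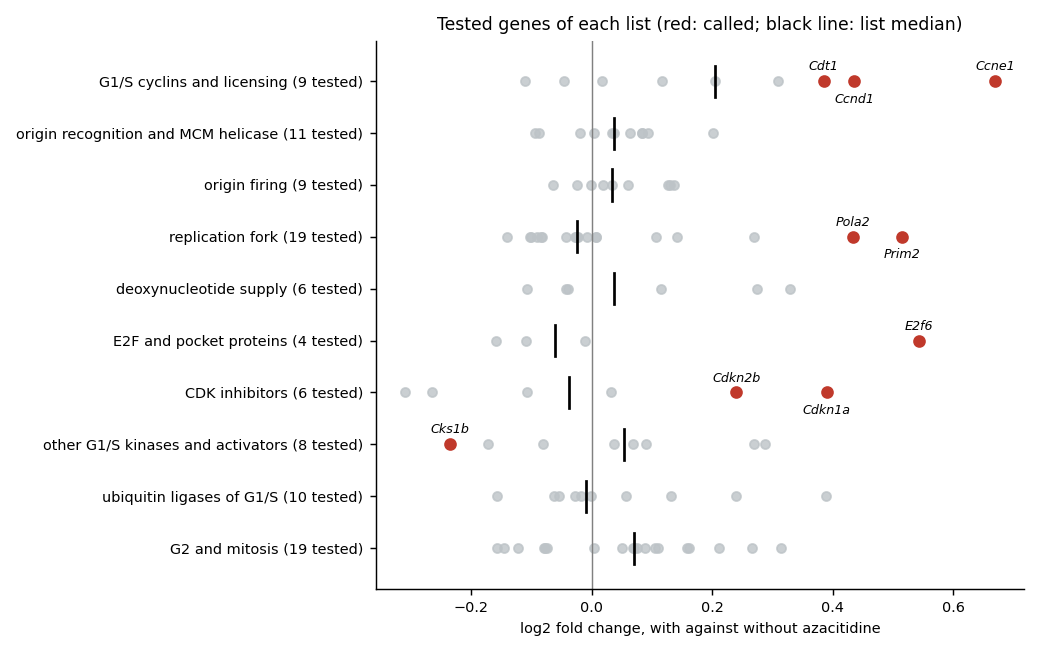
Log2 fold change with against without azacitidine of the tested genes of the set and of the 9 other lists; red points are called genes, which are named, grey points are not called, and the black line is the median of a list. The set, chosen with earlier results of these data known, has a median of 0.20. The other medians lie between -0.06 and 0.07, and Cks1b is the called gene below 0.

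Of all 9344 tested genes 1600 had an unadjusted p under 0.05 (edgeR), and 5.65% were called. Among the loaders and the helicase itself, 0 of 11 tested ORC and MCM genes were called by edgeR, with 1 at an unadjusted p under 0.05, and their median was 0.04. The lowest p was that of Orc2, an origin recognition subunit, at a log2 fold change of 0.20 (SE 0.08; adjusted p = 0.17). The factors that fire licensed origins gave 0 calls in 9 tested genes and 0 at an unadjusted p under 0.05, with Cdc45, a helicase co-factor, lowest in p at 0.13 (SE 0.10; edgeR, adjusted p = 0.59). DESeq2 and limma-voom also gave 0 calls in both lists. Of 19 tested fork genes 2 rose, and both encode accessory subunits of the complex that makes the primers for new DNA. Pola2, the B subunit of DNA polymerase alpha, ran from 18.9 through 25.9 to 35.7 CPM without and from 28.9 through 35.4 to 46.8 CPM with azacitidine, which gave a log2 fold change of 0.43 (SE 0.09; edgeR, adjusted p = 0.0011). Prim2, the large primase subunit, ran from 8.36 through 11.9 to 17.6 CPM and from 12.0 through 17.5 to 23.4 CPM, which gave a log2 fold change of 0.51 (SE 0.11; edgeR, adjusted p = 0.0017). The catalytic subunits of the same complex were not called: Prim1 was at 0.27 (SE 0.13; edgeR, adjusted p = 0.29) and Pola1 at -0.14 (SE 0.15; adjusted p = 0.70).

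Of 6 tested inhibitors of cyclin-dependent kinases 2 rose and none fell by edgeR, and the median log2 fold change of the 6 was -0.04. Over all tested genes 3.65% were called as higher and 2% as lower. Cdkn1a, which encodes the p53-induced inhibitor p21, ran from 214 through 252 to 325 CPM without and from 295 through 340 to 389 CPM with azacitidine, which gave a log2 fold change of 0.39 (SE 0.06; edgeR, adjusted p = 5.6e-06). Cdkn2b, which encodes the CDK4 and CDK6 inhibitor p15, rose by 0.24 (SE 0.06; edgeR, adjusted p = 0.010). With spike-in scaling it was at 0.57, above the median of all tested genes, and was not called (edgeR, adjusted p = 0.085). In the 4 runs the log2 fold change of Cdkn2b was 0.35, 0.43, 0.17 and -0.02. The 2 genes of the list with the lowest log2 fold changes did not pass the test: Cdkn2c, which encodes the CDK4 and CDK6 inhibitor p18, was at -0.31 (SE 0.12; edgeR, adjusted p = 0.12), and Cdkn1b, which encodes p27, was at -0.26 (SE 0.12; adjusted p = 0.24). A run term called Cdkn2c (edgeR, adjusted p = 0.0011), and with that term 993 of all tested genes were called, against 528 in the main test. The sums over runs with a run term did not call Cdkn2c (edgeR, adjusted p = 0.085). Among 4 tested genes of the E2F and pocket protein list E2f6, a repressor of the E2F family, rose by 0.54 (SE 0.16; edgeR, adjusted p = 0.032), whereas E2f1, an activator, was at -0.01 (SE 0.10; adjusted p = 0.98). Among 8 other kinases and activators Cks1b, a small subunit of CDK complexes that helps to mark p27 for destruction, fell by 0.24 (SE 0.06) on the log2 scale (edgeR, adjusted p = 0.015), and with spike-in scaling, where the median of all tested genes is 0.31, it was at 0.10 (adjusted p = 0.67). With the sums over runs and a run term Pola2, Prim2, Cdkn1a and Cks1b were called, and E2f6 and Cdkn2b were not (edgeR, adjusted p = 0.115 and 0.135).

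The lists of ubiquitin ligases and of G2 and mitosis gave 0 calls by edgeR, DESeq2 and limma-voom. An unadjusted p under 0.05 (edgeR) was found for 1600 of all 9344 tested genes. Of 10 ubiquitin ligase genes that act on G1/S proteins 1 had an unadjusted p under 0.05, Ddb1, the adaptor of the ligase that degrades CDT1 in S phase, at -0.16 (SE 0.06; adjusted p = 0.095). Of 19 genes of G2 and mitosis 1 did so, the mitotic kinase gene Aurka at 0.32 (SE 0.14; adjusted p = 0.22). Spike-in scaling called Aurka (edgeR, adjusted p = 0.045). That call is against 0, while with this scaling the median of all tested genes is 0.31 and that of the G2 and mitosis list is 0.39.

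The genes whose levels were most like those of the 3 called genes across the 32 libraries, after removal of the group means, were found by Pearson's r as a description, since libraries of a run share more than their group. For Cdt1 these were Asf1b (r = 0.77), Gnpda1 (0.75) and Lamb2 (0.75). For Ccnd1 they were Iws1 (0.70), Wwtr1 (0.69) and Nol3 (0.69). For Ccne1, which has few UMIs, the highest values were 0.57 for Cox10, AW209491 and Gm7984, low values for the highest among 9344 genes in sparse counts. None of these 9 genes was called between the groups (edgeR, adjusted p from 0.23 to 1.00).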

How the data were processed

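The authors deposited counts (UMIs for each gene in each library, unnormalised), made with STAR 2.4.0, bedtools 2.17.0 and the build mm10, per the submitters' processing notes. The annotation, strand and UMI collapsing are not given in the sources used here. Per the labels' protocols, barcoded cDNA was pooled and made into a library by a transposase kit. Of 21897 lines, 68 were ERCC spike-ins (0.106% of UMIs), which stayed out of library sizes and tests. Of 21829 genes 21506 had a symbol in GENCODE M21, which also gave positions.

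Groups came from the titles. The test was edgeR 4.0.16 (R 4.3.3; quasi-likelihood, robust, TMM, default expression filter by group, two-sided), adjusted over 9344 genes by Benjamini-Hochberg, checked on simulated counts. Standard errors were derived from fold change and F statistic. Sums were compared by permutation with 100000 resamples (scipy 1.17.1). DESeq2 1.42.0 and limma 3.58.1 (voom) were alternatives, as were other scalings, filters, thinning and sample sets. The set, the lists and the tests were chosen with earlier results of these data known. Named were all 10 genes, up to 4 called genes per list or the one lowest in p, Cdkn1a, and the 3 genes most like each called one. Marker genes, overlapping genes, Prim1, Pola1, Cdkn2c, Cdkn1b, E2f1, E2f4 and Rbl2 were named after their values were seen. A result of the deoxynucleotide supply list is not reported here.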

Additional observations from a re-analysis of the deposited data

How the results depend on the processing

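Of the log2 fold changes of the 9 tested genes under 14 alternatives chosen at the start and 1 added after the data were seen (the median of 20 thinning draws), all kept their direction and their side of the threshold but the following. Spike-in scaling, which moves the median of all tested genes to 0.31, turned Ccnd3 to 0.26 and Cdk4 to 0.20, neither called, and called Ccnd2 (0.67). The replicate number as a block also called Ccnd2 (0.28, adjusted p = 0.016), and the sums over runs did not (0.28, adjusted p = 0.16). The run term turned Gmnn to -0.0043 and the first thinning to -0.020. At an adjusted p under 0.01 Cdt1 (log2 fold change 0.39), whose adjusted p is 0.010, was not called. Cdt1 after thinning had an adjusted p between 0.0072 and 0.14 over the 20 draws. Ccne1 and Cdc6 gave no value after thinning, and Ccne2 had no value in the main test. Over the draws Cdk2 varied in sign, from -0.15 to 0.28, and so did Gmnn, from -0.091 to 0.22. Thinning leaves fewer UMIs. The cause of the change in Gmnn under the run term, and of the Ccnd2 call under the block, was not tested.

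The number of called genes of the set lay between 2 and 4 over these alternatives. Among all genes 528 were called, against 993 with the run term, 860 without a filter, 261 after thinning (7256 genes tested) and 296 at an adjusted p under 0.01. With the replicate block 897 genes were called. The numbers were not taken as pairs: the deviations of same-numbered libraries correlated between -0.29 and 0.83, above 0.1 in 12 of 16, and 4 of 16 libraries were most alike to their own number. Depth limits the E-type cyclins, Cdk2 and Cdc6, with 4 to 69 UMIs per library.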
